A study of Mus musculus with 6 samples.

Results

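The genes described here encode the cytotoxic effector molecules of killer lymphocytes. They are the granzymes Gzma, Gzmb, Gzmc, and Gzmk, the pore former Prf1, the granule protein Nkg7, the death ligand Fasl, the cytokine Ifng, the chemokine Ccl4, and the activating receptor Klrk1. The 10 genes were chosen by symbol, for their function, from the 26167 genes of the expression tables, and all 10 were found there. RNA was measured by RNA-seq in whole tumors grown from Hep1-6 cells (Hepa1-6 in the study's methods), a mouse hepatoma cell line injected under the skin of female C57BL/6J mice aged 6 to 8 weeks. The treated mice received sorafenib (Sora), an inhibitor of several kinases, given intraperitoneally at 10 mg/kg on day 9 after the transplant and again on days 11, 13, and 15. The other tumors are labeled control, and what the control mice were injected with is not given in the sources used here. There were 3 control tumors, numbered 1, 3, and 4, and 3 Sora-treated tumors, numbered 2, 3, and 4, and 1 library was made from each. The labels do not name the mice, so the p-values measure the spread between these tumors. A transplanted line under the skin differs from a tumor that arises in the liver, and a whole tumor mixes hepatoma cells with infiltrating immune cells and stroma.

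Killer lymphocytes, mainly CD8 T cells and NK cells, carry lytic granules that are released onto a target cell at the point of contact. Perforin opens the way into the target, and granzymes, which are serine proteases, then cleave proteins in the cytosol and start cell death. Independently of the granule, Fas ligand binds the receptor Fas, and secreted interferon-γ acts on tumor cells and macrophages nearby. In bulk tumor RNA, fewer killer cells and less transcript per cell cannot be told apart.

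Total counts were 31073830 to 36205814 reads per tumor. Those of Sora-treated tumor 4 were recovered from its FPKM (fragments scaled to gene length and library total) because the count table used here holds the other 5 tumors. The tumors carried the hepatoma transcripts Afp, at 877 ± 193 CPM (counts scaled to library size; SD, n = 3) in control tumors, and Alb, at 3198 ± 475 CPM. They also carried the T cell transcript Cd3e, at 29.0 ± 2.06 CPM in control and 23.0 ± 2.59 CPM in Sora-treated tumors. Cd8a was at 66.4 ± 5.46 and 53.5 ± 6.5 CPM, Cd4 at 23.6 ± 6.5 and 16.1 ± 2.30 CPM. Cd8a marks killer T cells, and Cd4 marks helper and regulatory T cells. The NK cell transcripts Ncr1 and Klrb1c were low, at 1.01 ± 0.404 and 1.95 ± 0.605 CPM in the controls, against 1.37 ± 0.508 and 1.94 ± 0.196 CPM after Sora. Across the effector genes, control tumor 4 stood nearer to the Sora-treated tumors than to the other controls, with a median of 75.1% of the control mean against 110% and 111% in control tumors 1 and 3. The Sora-treated tumors 2, 3, and 4 had medians of 66.6%, 79.0%, and 88.3%.

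Every effector gene was expressed in every tumor. On the FPKM scale, which corrects for gene length, the order over the 6 tumors was Nkg7 (mean 46.5), Gzmb (39.1), Ccl4 (20.3), Gzma (14.0), Prf1 (10.6), Gzmk (8.13), Ifng (5.67), Klrk1 (4.95), Gzmc (4.16), and Fasl (2.5). Nkg7 lay above 91.5% of the 16513 genes tested and Fasl above 37.6%. All neighbors in this order overlapped in their range over tumors. Within tumors, the higher of each pair of neighbors was above the next in 5 of 6 tumors for the first 6 genes, in 4 of 6 for Ifng over Klrk1 and for Klrk1 over Gzmc, and in 6 of 6 for Gzmc over Fasl.

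**Figure D1:**
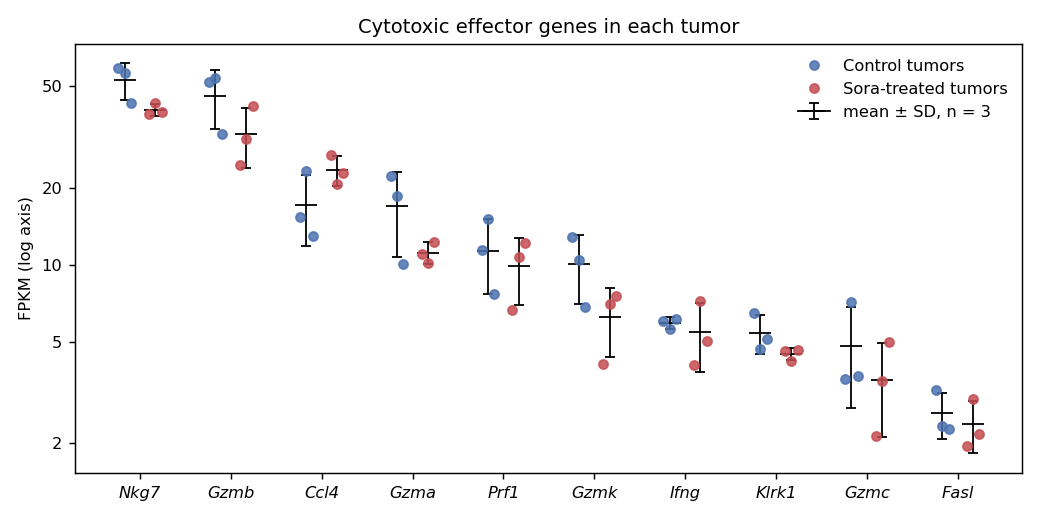
FPKM on a log axis of the 10 effector genes, ordered by mean level, with 1 point per tumor (blue, control; red, Sora-treated) and bars for the mean ± SD of 3 tumors. Nkg7 and Gzmb stand highest, Fasl lowest, and only for Nkg7 and Klrk1, each by a narrow margin, do all red points lie below the blue ones.

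The comparison of the groups asks how the killer cell program of the tumor stood after Sora treatment. The mean CPM of 9 of the 10 effector genes was lower in Sora-treated tumors and that of Ccl4 was higher. The median log2 fold change of the 10 genes was -0.31, and that of all genes tested was -0.00037. A log2 fold change under 0 was found for 50.1% of all genes tested. No effector gene passed an adjusted p of 0.05 in edgeR's quasi-likelihood test (Benjamini-Hochberg over all 16513 genes), in which 3.29% of all genes did. Limma voom called none either, against 3.2% of all genes. DESeq2 called 1, Nkg7, at an adjusted p of 0.043, against 7.89% of all genes. At an unadjusted p under 0.05 in edgeR, 5 of the 10 passed (Gzma, Gzmb, Gzmk, and Nkg7 lower, Ccl4 higher), against 17.2% of all genes in either direction. The shares over all genes in this paragraph are also the background for the gene lists below, and no list was tested as a set.

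**Figure D2:**
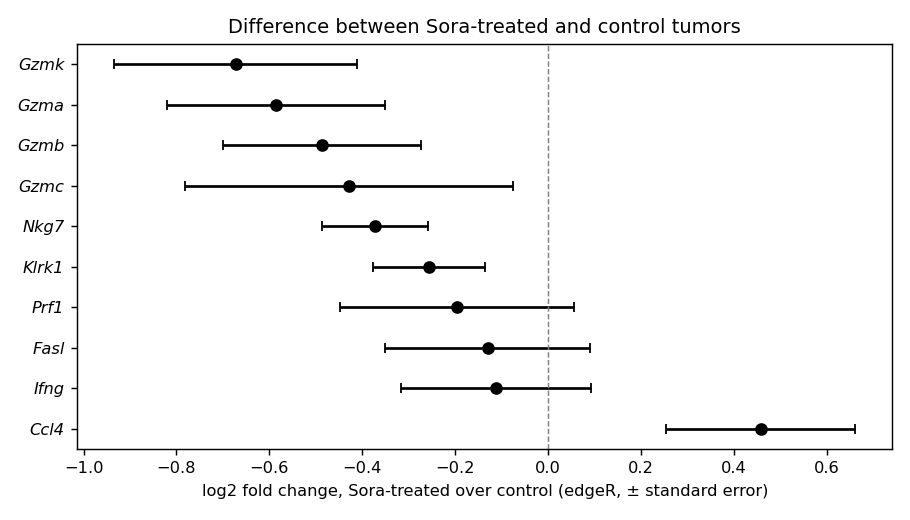
Log2 fold change of Sora-treated over control tumors for the 10 effector genes (points, edgeR; bars, standard error; n = 3 tumors per group). The points run from -0.67 for Gzmk to 0.46 for Ccl4, and the bars of Prf1, Fasl, and Ifng cross 0.

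Granzymes A and K are tryptases that cut after basic residues and are encoded side by side on mouse chromosome 13. Gzma was at 19.0, 16.7, and 8.82 CPM in control tumors 1, 3, and 4 and at 9.65, 8.81, and 11.2 CPM in Sora-treated tumors 2, 3, and 4. Control tumors 1 and 3 were high, and control tumor 4 lay within the Sora-treated range. The means were 14.8 ± 5.34 and 9.87 ± 1.19 CPM, with a log2 fold change of -0.59 (SE 0.24) and an adjusted p of 0.22 (edgeR). Without control tumor 4 the change was -0.85 and the adjusted p 0.039, and without control tumor 1 they were -0.37 and 0.55. Leaving out any other tumor gave an adjusted p of 0.33 to 0.43. Gzmk, which marks effector memory CD8 T cells, was at 13.8, 11.8, and 7.51 CPM in control tumors and at 4.47, 7.65, and 8.60 CPM in Sora-treated tumors. The highest values were again in control tumors 1 and 3 and the lowest in Sora-treated tumor 2. Its means were 11.04 ± 3.21 and 6.91 ± 2.16 CPM, with a log2 fold change of -0.67 (SE 0.26, adjusted p = 0.21, edgeR) that was -0.44 without Sora-treated tumor 2. This was the largest change of the 10 genes over all 6 tumors, but without Sora-treated tumor 2 that of Gzma (-0.57) was larger, without control tumor 1 that of Gzmc (-0.61), and without control tumor 3 that of Ccl4 (0.76).

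Granzyme B, which cuts after aspartate and activates caspases and Bid, is the best studied of the family, and its gene neighbors Gzmc on chromosome 14. Gzmb was at 76.1, 83.0, and 48.4 CPM in control tumors and at 36.9, 46.5, and 64.7 CPM in Sora-treated tumors. The groups overlapped because control tumor 4 lay below Sora-treated tumor 4. The means were 69.2 ± 18.3 and 49.3 ± 14.1 CPM, with a log2 fold change of -0.49 (SE 0.21, adjusted p = 0.27, edgeR) that was -0.31 without Sora-treated tumor 2. Gzmc, a granzyme of strongly stimulated mouse lymphocytes, was at 3.89, 8.19, and 4.05 CPM in control and at 2.36, 3.87, and 5.73 CPM in Sora-treated tumors. Its highest value was in control tumor 3 and its lowest in Sora-treated tumor 2, and the log2 fold change was -0.43 (SE 0.35, adjusted p = 0.60, edgeR). Without control tumor 3 this difference was 0.0073.

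How far reads can separate these proteases depends on their sequences. The following stretches of 45 bases surround the codon of the active-site serine, in capitals, in the coding sequences of GENCODE M21. They were located as the only place in each reading frame that encodes aspartate, serine, glycine, any residue, and proline, and are shown because they let the members be compared with the nearly identical Gzmd and Gzme.

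Gzma: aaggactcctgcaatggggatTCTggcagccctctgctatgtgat

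Gzmk: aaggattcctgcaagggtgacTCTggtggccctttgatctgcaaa

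Gzmb: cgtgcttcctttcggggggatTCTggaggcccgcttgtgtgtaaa

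Gzmc: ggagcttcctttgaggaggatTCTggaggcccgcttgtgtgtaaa

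Gzmd: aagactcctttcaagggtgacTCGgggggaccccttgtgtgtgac

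Gzme: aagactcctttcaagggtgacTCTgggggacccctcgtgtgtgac

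The serine was codon 211 in Gzma, 213 in Gzmk, 203 in Gzmb, and 204 in Gzmc. Over the whole coding sequence, Gzmb and Gzmc were 76.3% identical, Gzma and Gzmk 55.7%, and Gzmd and Gzme 93.3%. No stretch of 50 bases in the transcripts of Gzma, Gzmb, Gzmk, Prf1, Nkg7, Fasl, Ccl4, or Klrk1 was found in a transcript of another gene. In Gzmc 4.14% of such stretches were shared with Gzmd, Gzme, or Gzmg, so its counts are less certain, and in Gzmd and Gzme the shares were 21.9% and 20.6%.

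The share of Gzmb varied less between tumors than the total of the granzymes did. The summed FPKM of the 10 granzyme genes measured came to 98.9, 108, and 58.0 in control tumors 1, 3, and 4, against 47.4, 60.6, and 79.7 in Sora-treated tumors 2, 3, and 4. Gzmb made up 49.5% to 55.7% of this sum in every tumor, with a mean share of 52.5% ± 3.09 in the controls and 51.7% ± 0.438 after Sora (exact two-sided permutation test, p = 0.7, n = 3 per group). The share of Gzma was 19.0% ± 2.96 and 18.5% ± 4.20, that of Gzmk 11.5% ± 1.69 and 9.89% ± 1.52. Gzme, chosen after its values were seen, took 1.51%, 2.46%, and 1.5% in control tumors, against 3.97%, 3.66%, and 4.10% in Sora-treated tumors. Its groups did not overlap, and the exact two-sided permutation test gave p = 0.1, the smallest that 3 against 3 tumors allow, and 0.5 after adjustment over the 10 granzymes. The sum it is divided by had a lower mean in Sora-treated tumors (88.4 and 62.6 FPKM), which raises the share of any gene that did not fall as far. How many of all genes would be separate on this ratio was not computed. The small share of Gzmm, also seen afterward, was separate too, at 0.193% ± 0.118 in the controls and 0.519% ± 0.316 after Sora, with the same p. It rests on few reads, 12, 3, and 8 in control tumors and 19, 12, and 11 in Sora-treated tumors. In CPM the groups of Gzmm overlapped.

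**Figure D3:**
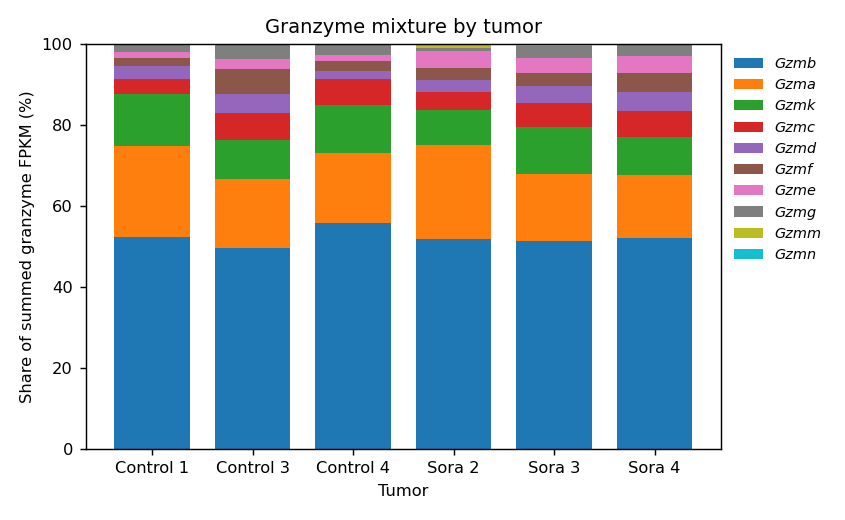
Share of each granzyme gene in the summed granzyme FPKM (%), 1 stacked bar per tumor, without an error bar because each bar is 1 library. Gzmb holds 49.5% to 55.7% of each bar, followed by Gzma and Gzmk.

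None of the 5 other granzymes that passed the filter of 10 counts in 3 tumors was called by edgeR, DESeq2, or limma voom or had an unadjusted p under 0.05 in edgeR, and 3 of them were lower and 2 higher. Without control tumor 3 the number lower was 0. Gzmd was at 3.07 ± 1.88 and 2.54 ± 1.20 CPM, Gzmf at 3.10 ± 2.72 and 2.23 ± 1.23 CPM, and Gzme at 1.55 ± 0.880 and 2.29 ± 0.727 CPM in control and Sora-treated tumors. The groups overlapped for each of these genes, and Gzmn was under the filter.

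Perforin polymerizes into pores in the membrane of the target cell. Prf1, on chromosome 10, was at 29.5, 41.0, and 20.3 CPM in control tumors and at 17.6, 28.2, and 33.4 CPM in Sora-treated tumors. The groups overlapped over most of their range, with control tumor 3 highest and Sora-treated tumor 2 lowest. The means were 30.3 ± 10.4 and 26.4 ± 8.08 CPM, with a log2 fold change of -0.19 (SE 0.25, adjusted p = 0.76, edgeR), and it was 0.086 without control tumor 3 and 0.028 without Sora-treated tumor 2.

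Nkg7 encodes a membrane protein of the lytic granule needed for efficient degranulation, and lies on chromosome 7. It was at 46.5, 46.9, and 34.6 CPM in control tumors and at 31.4, 34.4, and 33.0 CPM in Sora-treated tumors. Nkg7 was the only effector gene whose groups did not overlap in CPM, although control tumor 4 lay close above Sora-treated tumor 3. Such a separation toward lower values was found for 11.6% of all genes tested, and toward higher values for 10.6%. The means were 42.7 ± 7.0 and 32.9 ± 1.47 CPM, with a log2 fold change of -0.37 (SE 0.11, adjusted p = 0.11, edgeR). Without control tumor 4 the adjusted p was 0.037, and leaving out any other tumor gave 0.11 to 0.31.

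Of the 13 genes tested for granule assembly and release, 1 was called by edgeR and 9 had a log2 fold change under 0. The called gene, Ctsl, which encodes a lysosomal cathepsin made by many cell types, was higher, at 641 ± 43.0 CPM in control and 926 ± 136 CPM in Sora-treated tumors (log2 fold change 0.53, adjusted p = 0.030). Ctsc, which encodes the cathepsin that activates granzymes, was at 385 ± 19.3 and 303 ± 26.5 CPM with no overlap, and was called by DESeq2 and limma voom but not by edgeR (adjusted p = 0.052). Calr, a calcium-binding chaperone of the endoplasmic reticulum, was at 900 ± 20.5 and 829 ± 7.23 CPM, and Lamp1, the lysosomal membrane protein exposed on degranulating cells, at 645 ± 8.48 and 590 ± 31.5 CPM, neither of them called (adjusted p = 0.46 and 0.43). Among 5 serpins listed as granzyme inhibitors, Serpinb9, which blocks granzyme B, was called, at 202, 210, and 205 CPM in control and at 145, 167, and 158 CPM in Sora-treated tumors. Its groups did not overlap, and the log2 fold change was -0.39 (SE 0.08, adjusted p = 0.023, edgeR). Serpinb6a (395 ± 29.8 and 410 ± 18.8 CPM), Serpinb9b (139 ± 14.6 and 103 ± 23.5 CPM), and Serpinb6b (110 ± 3.66 and 93.6 ± 7.74 CPM) were not called by edgeR, and DESeq2 called Serpinb9b.

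Fas ligand engages Fas on the target and recruits Fadd and Casp8. Fasl, on chromosome 1, was at 6.10, 4.63, and 4.38 CPM in control tumors and at 3.74, 5.72, and 4.34 CPM in Sora-treated tumors. Values of both groups were interleaved. The means were 5.04 ± 0.929 and 4.6 ± 1.01 CPM, with a log2 fold change of -0.13 (SE 0.22, adjusted p = 0.82, edgeR) that was 0.030 without control tumor 1. Of the 11 genes listed with it as death ligands, receptors, and caspases, 7 had a log2 fold change under 0, against 50.1% of all genes. None was called by edgeR or limma voom. An unadjusted p under 0.05 in edgeR was found for 5, against 17.2% of all genes. DESeq2 called 2 (Tnfsf10 lower and Cflar higher), against 7.89% of all genes. Casp8, the caspase recruited to Fas, was at 126 ± 8.29 and 127 ± 6.75 CPM, and Bid, a substrate of granzyme B, at 48.6 ± 0.878 and 46.2 ± 3.86 CPM.

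Interferon-γ is the main macrophage-activating cytokine of T and NK cells. Ifng, on chromosome 10, was at 7.10, 6.90, and 7.37 CPM in control tumors and at 4.86, 8.66, and 6.25 CPM in Sora-treated tumors. The control tumors lay close together, and the Sora-treated tumors spread on both sides of them. The means were 7.12 ± 0.234 and 6.59 ± 1.93 CPM, with a log2 fold change of -0.11 (SE 0.20, adjusted p = 0.83, edgeR), which was 0.066 without Sora-treated tumor 2. In GENCODE M21, 13.5% of the stretches of 50 bases in Ifng are shared with the gene Gm49751, which is not in the count table.

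The other genes of this pathway include the receptor, its kinases, and the cytokines that induce Ifng. Of the 15 tested genes of interferon-γ signalling, 13 had a log2 fold change under 0, with a median of -0.25, against 50.1% of all genes. None was called by edgeR or limma voom. An unadjusted p under 0.05 in edgeR was found for 8, against 17.2% of all genes. DESeq2 called 3 (Cxcl10 and Il18r1 lower, Jak2 higher), against 7.89% of all genes. The transcription factor Irf1 was at 425 ± 46.2 and 357 ± 62.2 CPM (adjusted p = 0.35), and the T cell-attracting chemokine Cxcl9 at 428 ± 44.8 and 333 ± 91.6 CPM (adjusted p = 0.31).

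Ccl4 encodes a chemokine that is made by activated lymphocytes and also by macrophages and neutrophils. It was at 9.84, 15.7, and 8.47 CPM in control tumors and at 17.7, 13.5, and 15.4 CPM in Sora-treated tumors. The single effector gene with a higher mean in Sora-treated tumors, it overlapped between groups through control tumor 3. The means were 11.3 ± 3.81 and 15.5 ± 2.09 CPM, with a log2 fold change of 0.46 (SE 0.20, adjusted p = 0.28, edgeR). Without control tumor 3 the change was 0.76 and the adjusted p 0.040, and without control tumor 4 they were 0.28 and 0.56. Leaving out any other tumor gave a change of 0.36 to 0.55 and an adjusted p of 0.21 to 0.61.

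Its neighbor on chromosome 11, Ccl3, which encodes a related chemokine, was at 11.8, 15.9, and 14.6 CPM in control and at 23.2, 16.4, and 20.1 CPM in Sora-treated tumors, with no overlap (log2 fold change 0.50, adjusted p = 0.10, edgeR). Of the 7 partners tested, including Ccr1, Xcl1, and Xcr1, none was called by edgeR or limma voom, and DESeq2 called Ccl3, against 7.89% of all genes. An unadjusted p under 0.05 in edgeR was found for 3, against 17.2% of all genes. A log2 fold change under 0 was found for 5, against 50.1% of all genes. That count ranged from 3 (without control tumor 3) to 6 when 1 tumor was left out. Ccl5, a chemokine abundant in memory T cells, was at 62.3 ± 4.89 and 50.2 ± 10.9 CPM, and Ccl9 at 143 ± 29.9 and 138 ± 17.1 CPM. The summed CPM of 4 neutrophil markers ran from 55.8 to 63.8 in the controls and from 68.7 to 136 after Sora. All 4 had a higher mean, with a median log2 fold change of 0.87, and S100a9, which encodes a subunit of calprotectin, was called (12.03 ± 2.41 and 27.8 ± 12.9 CPM, adjusted p = 0.042) by edgeR alone (adjusted p = 0.053 in DESeq2 and 0.073 in limma voom). In the same list DESeq2 alone called Csf3r, which was higher. All 6 macrophage markers had a lower mean, with a summed CPM of 1460 to 1755 and 1226 to 1434. Of these, edgeR and limma voom called none, and 4 had an unadjusted p under 0.05 in edgeR, against 17.2% of all genes. DESeq2 called 3 (Csf1r, C1qa, and C1qb), against 7.89% of all genes. No marker in these lists was at 0, and their part in the difference of Ccl4 was not tested.

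Klrk1 encodes NKG2D, the receptor for stress-induced ligands on tumor cells, and lies beside Klrd1 on chromosome 6. It was at 21.7, 16.5, and 17.5 CPM in control tumors and at 15.7, 14.4, and 16.5 CPM in Sora-treated tumors. Control tumor 1 was highest, and the groups overlapped at control tumor 3 and Sora-treated tumor 4. In FPKM these 2 tumors were at 4.67 and 4.65, in the other order, so that the groups did not overlap on that scale. The means were 18.6 ± 2.73 and 15.5 ± 1.09 CPM, with a log2 fold change of -0.26 (SE 0.12, adjusted p = 0.31, edgeR) that was -0.13 without control tumor 1. None of the 10 tested ligands, adapters, and related receptors was called by edgeR, DESeq2, or limma voom or had an unadjusted p under 0.05 in edgeR, and 5 had a log2 fold change under 0. The number lower ranged from 4 to 8 (without control tumor 4) when 1 tumor was left out. The adapter Tyrobp was at 96.8 ± 13.2 and 86.9 ± 7.77 CPM, the NKG2D adapter Hcst at 3.75 ± 1.29 and 4.15 ± 0.608 CPM, and Klrd1 at 15.1 ± 2.69 and 13.7 ± 0.671 CPM.

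**Figure D4:**
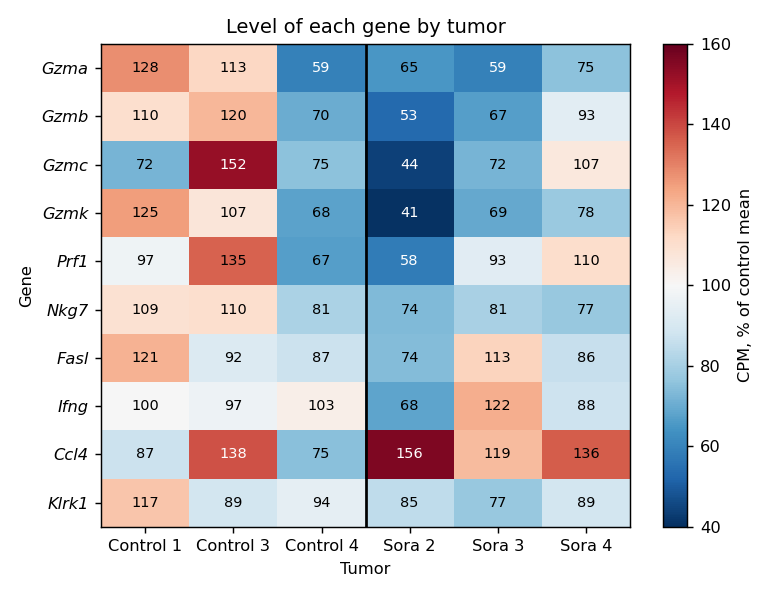
CPM of each effector gene in each tumor as % of the mean of the 3 control tumors, printed in the cells and colored from blue (40) to red (160). Sora-treated tumor 2 holds the lowest value of 7 of the 10 genes, and control tumors 1 and 3 hold the highest value of 4 each.

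Seen by tumor, Sora-treated tumor 2 held the lowest value of 7 effector genes, Sora-treated tumor 3 of 2, and control tumor 4 of 1. The same Sora-treated tumor 2 held the highest value of Ccl4. Over the 6 tumors, the genes outside the list whose centered log2(CPM + 1) profile came nearest to the mean profile of the 10 effector genes were Cd3d (root mean square difference 0.029), Rtl6 (0.052), Socs1 (0.067), Stk32c (0.070), H2-M2 (0.074), Il7r (0.075), Jakmip1 (0.076), and Gna15 (0.076). The median of the 14102 genes compared was 0.27. The effector genes themselves differed from their mean profile by 0.12 (Nkg7) to 0.44 (Ccl4), and Gzmc (0.29) and Ccl4 lay beyond that median. The mean profile therefore does not describe each member. Cd3d encodes a chain of the T cell receptor complex, Il7r the receptor for interleukin 7, and Socs1 a feedback inhibitor of cytokine signalling.

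T cell markers were counted in the same way. All 9 tested T cell markers had a log2 fold change under 0, with a median of -0.27, and the summed CPM ran from 198 to 228 in the controls and from 163 to 180 after Sora. Cd6, a T cell surface receptor, was called, at 21.7 ± 2.31 and 14.5 ± 2.30 CPM (log2 fold change -0.58, adjusted p = 0.039, edgeR). Cd8b1, the beta chain of CD8, was called too, at 29.1 ± 2.93 and 19.7 ± 0.694 CPM (log2 fold change -0.56, adjusted p = 0.018). DESeq2 and limma voom called both as well, and DESeq2 alone also called the kinase gene Lck and, in the CD4 T cell list, Cd4, both lower. The 6 NK cell markers split evenly, with a median log2 fold change of 0.03 and a summed CPM of 11.8 to 16.7 and 13.2 to 18.4. Among them Klra4, which encodes a receptor of the Ly49 family, was called by edgeR (1.33 ± 0.256 and 4.69 ± 2.54 CPM, adjusted p = 0.045) and DESeq2 but not by limma voom (adjusted p = 0.13). Mast cells and plasmacytoid dendritic cells can also express Gzmb, and no marker of either was called by edgeR, DESeq2, or limma voom or had an unadjusted p under 0.05 in edgeR. The summed CPM was 143 to 195 and 143 to 209 for the 7 mast cell markers and 158 to 235 and 158 to 196 for the 3 plasmacytoid dendritic cell markers.

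To set the effector genes against T cell content, each was divided by the geometric mean CPM of Cd3d, Cd3e, and Cd3g in the same tumor. That mean came to 29.6, 28.4, and 26.9 CPM in the controls, against 22.5, 23.9, and 23.0 CPM in Sora-treated tumors. Relative to it, 5 of the 10 genes were lower and 5 higher in Sora-treated tumors, against 9 lower in CPM. Because the reference was itself lower in Sora-treated tumors, the division raised every gene by the same amount, and 13.5% of the 16479 tested genes with reads in every tumor were lower on this ratio. The log2 ratio of Gzmb stood at 1.36, 1.55, and 0.85 in the controls and at 0.71, 0.96, and 1.49 in Sora-treated tumors, a difference of -0.20 (exact two-sided permutation test, p = 0.6, n = 3 per group) that ranged from -0.42 without Sora-treated tumor 4 to -0.03 without Sora-treated tumor 2. For Nkg7 the difference was -0.07 and the groups overlapped (exact permutation p = 0.5). Its sign was not stable, with -0.18 without control tumor 4, 0.00093 without control tumor 3, and 0.08 relative to Cd8a and Cd8b1. Ccl4 was the only gene whose groups were separate, at -1.59, -0.86, and -1.67 in the controls and -0.35, -0.83, and -0.57 in Sora-treated tumors. Its difference was 0.79 (exact permutation p = 0.1, the smallest this design allows, and 0.8 after adjustment over the 10 genes). On this ratio 46.4% of all genes tested were separate toward higher values and 1.77% toward lower values. Relative to Cd8a and Cd8b1 the groups of Ccl4 were separate, with a difference of 0.94 (exact permutation p = 0.1). The geometric mean of Cd8a and Cd8b1 was itself lower in every Sora-treated tumor than in any control, which raises every gene on that ratio. How many of all genes were separate on it was not computed. Relative to Ncr1 and Klrb1c the groups of Ccl4 overlapped, with a difference of 0.26 (exact permutation p = 0.2). The count of lower genes was 4 to 7 when 1 tumor was left out and also depended on the reference, with 3 of 10 lower relative to Cd8a and Cd8b1 and 9 of 10 relative to the sparse NK cell genes Ncr1 and Klrb1c. Each division shifts every gene alike, and the share of all genes lower was not computed for these other references. The geometric mean of Ncr1 and Klrb1c was 1.09, 1.97, and 1.13 CPM in the controls and 1.81, 1.70, and 1.29 CPM after Sora.

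**Figure D5:**
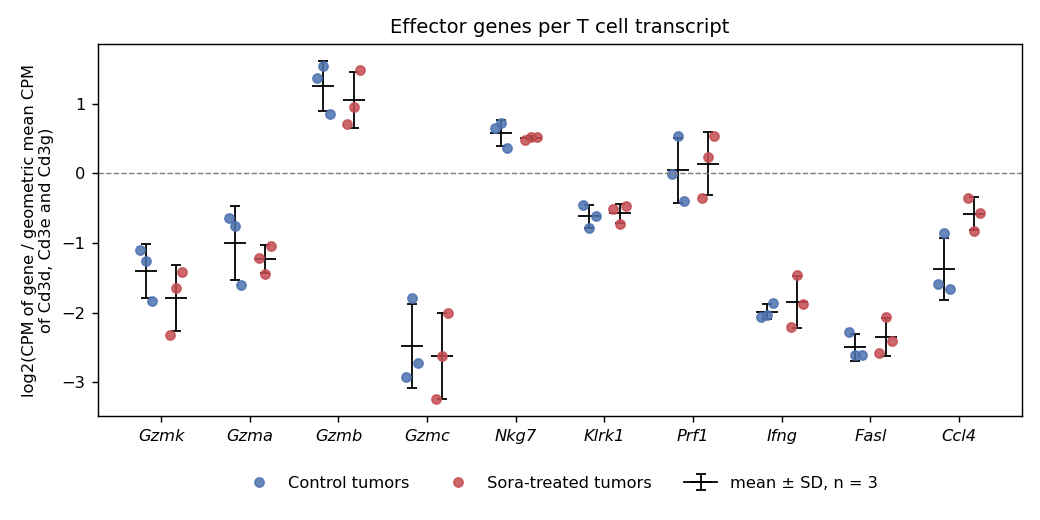
Log2 ratio of each effector gene to the geometric mean CPM of Cd3d, Cd3e, and Cd3g, 1 point per tumor (blue, control; red, Sora-treated) with the mean ± SD of 3 tumors, ordered by the difference. The groups overlap for every gene except Ccl4, at the right, which is higher by 0.79, as 46.4% of all genes tested were separate toward higher values on this ratio.

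The transcription of granzymes, perforin, and interferon-γ in killer cells is driven by the T-box factors T-bet and Eomes together with Runx3, and STAT factors relay cytokine signals. Tbx21, which encodes T-bet, was at 9.37, 8.99, and 7.64 CPM in control and at 5.62, 5.89, and 6.70 CPM in Sora-treated tumors. Eomes was at 6.10, 6.23, and 4.44 CPM in control and at 3.87, 4.11, and 2.84 CPM in Sora-treated tumors. Neither overlapped between groups and neither was called (log2 fold change -0.51 with adjusted p = 0.10 for Tbx21 and -0.63 with adjusted p = 0.16 for Eomes, edgeR). Separation toward lower values was found for 11.6% of all genes tested, and toward higher values for 10.6%. Runx3 overlapped between groups, at 19.9 ± 3.06 and 17.8 ± 1.32 CPM in control and Sora-treated tumors (log2 fold change -0.16, adjusted p = 0.56, edgeR). Of the 9 lytic transcription factors tested, 5 had a log2 fold change under 0, against 50.1% of all genes. None was called by edgeR or limma voom, and DESeq2 called Bhlhe40, against 7.89% of all genes. An unadjusted p under 0.05 in edgeR was found for 5, against 17.2% of all genes. The 3 most abundant had higher means in Sora-treated tumors, namely Id2 (203 ± 13.4 and 209 ± 29.6 CPM), Bhlhe40 (417 ± 30.01 and 513 ± 51.4 CPM), and Prdm1 (95.5 ± 8.25 and 117 ± 16.6 CPM). The groups of Bhlhe40 did not overlap, in the direction opposite to Tbx21 and Eomes.

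Short sequences that these factors are known to recognize were searched on both strands in the 250 bases before the start of each gene in RefSeq (GRCm38.p6), where 9 of the 10 effector genes were listed. The T-box letters TCACACC were found in the promoters of Nkg7 and Gzmk and in 3.33% of 32851 promoters. The RUNX letters TGTGGT were found in 6 of the 9 (Gzma, Gzmb, Gzmc, Prf1, Nkg7, and Klrk1) and in 14% of all promoters. The STAT letters TTCNNNGAA were found in Nkg7 and Ifng and in 7.02% of all, the AP-1 letters TGANTCA in Gzmb and in 6.75%, and the NFAT letters GGAAAA in Gzma and Fasl and in 20.4%. No matches of different motifs overlapped in an effector gene. The promoters of Gzmb, the most abundant granzyme, of Nkg7, the gene with separate groups, and of Gzmk, the other gene with a T-box match, follow in the direction of transcription, with T-box, RUNX, and STAT matches in capitals.

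Gzmb, chr14:56262335-56262584, minus strand: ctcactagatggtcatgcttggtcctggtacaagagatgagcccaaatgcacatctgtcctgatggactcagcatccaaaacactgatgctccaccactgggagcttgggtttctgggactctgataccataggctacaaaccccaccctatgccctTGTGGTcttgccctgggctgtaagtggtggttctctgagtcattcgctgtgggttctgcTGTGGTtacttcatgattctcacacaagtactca

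Nkg7, chr7:43436888-43437137, plus strand: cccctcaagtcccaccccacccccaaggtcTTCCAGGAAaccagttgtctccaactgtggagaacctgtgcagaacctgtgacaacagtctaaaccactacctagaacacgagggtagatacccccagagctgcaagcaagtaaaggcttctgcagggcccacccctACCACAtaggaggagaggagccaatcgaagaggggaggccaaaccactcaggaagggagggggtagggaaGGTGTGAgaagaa

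Gzmk, chr13:113180966-113181215, minus strand: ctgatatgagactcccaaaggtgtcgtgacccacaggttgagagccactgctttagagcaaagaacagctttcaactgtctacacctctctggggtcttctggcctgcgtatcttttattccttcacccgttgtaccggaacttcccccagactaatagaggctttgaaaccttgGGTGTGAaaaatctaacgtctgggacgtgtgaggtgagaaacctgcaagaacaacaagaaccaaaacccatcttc

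The Gzmb stretch held 2 RUNX matches, at -93 to -88 and at -34 to -29 counted from the start of the gene. The Nkg7 stretch held a T-box match at -13 to -7, a RUNX match at -83 to -78, and a STAT match at -220 to -212. In Gzmk the T-box match was at -75 to -69. These are matches of letters, and binding was not measured.

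Outside the effector genes, 9 genes of the lists were called, the others being the hepatoma genes Alb (3198 ± 475 and 2188 ± 231 CPM, adjusted p = 0.041), Ttr (9.42 ± 1.90 and 2.13 ± 0.315 CPM, adjusted p = 0.0055), and Apoa1 (22.1 ± 1.97 and 45.2 ± 19.7 CPM, adjusted p = 0.047, edgeR). In edgeR 3.29% of all genes tested were called, and these lists were chosen with earlier results of these data known. DESeq2 and limma voom also called Alb and Ttr but not Apoa1 (adjusted p = 0.061 and 0.081). Of the 9 edgeR calls, 8 were lost when Sora-treated tumor 2 was left out and 8 when tumor 4 of that group was, with Ttr kept both times. Leaving out control tumors 1, 3, or 4 ended 7, 5, and 7 of them, and leaving out Sora-treated tumor 3 ended 0.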

How the data were processed

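RNA-seq of 3 control and 3 Sora-treated tumors was analyzed. The authors deposited counts, whole reads per gene without normalization, and FPKM, in which those counts are divided by gene length and library total. The study's methods name GRCm38 and Bowtie2, whereas the submitters' processing notes list fastp, HISAT2, HTSeq, R 3.2.0, DESeq2, and GRCm39. The annotation, the use of strand, and the filters are not given in the sources used here. The counts of Sora-treated tumor 4 were recovered from its deposited FPKM and the gene lengths of the other tumors. All recovered values (100%) came within 0.001 of a whole number, the same procedure returned every count in the other 5 tumors, and 342 genes of unknown length, with 512 reads, were left at 0.

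The 16513 genes that reached 10 counts in 3 or more tumors were tested with edgeR 4.0.16 in R 4.3.3 (TMM scaling, glmQLFit and glmQLFTest, robust=FALSE), with Benjamini-Hochberg adjustment and a threshold of 0.05. Alternatives were DESeq2 1.42.0, limma 3.58.1 (voom, and log2(FPKM + 1) or log2(FPKM + 0.1)), other scalings and filters, robust=TRUE, a block for the tumor number, and leaving out each tumor. Ratios to T cell transcripts and granzyme shares were tested by exact permutation over 20 labelings. The script was tested on simulated data.

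The effector genes and lists were chosen with earlier results of these data known. The text names the 10 effector genes, every list gene with an adjusted p under 0.05, the 3 genes of highest mean FPKM in each pathway list (some are not reported here), Cd3e, Cd8a, Cd4, Ncr1, and Klrb1c, and the 8 genes outside the list (at least 1 CPM) with the nearest profile. Ccl3, Tbx21, Eomes, Runx3, the other chemokine partners, Ctsc, the list genes that only DESeq2 called, and the shares of Gzme and Gzmm were named after their values were seen. Listed genes not used here, because the tables hold no row of that symbol, were Vamp7, Zfp683, Raet1a, Raet1b, Raet1c, Trac, Trbc1, and Trbc2. Coordinates are those of the RefSeq promoters and not of the authors' files.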

Additional observations from a re-analysis of the deposited data

How the results depend on the processing

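Over all genes, edgeR's calls came to 321 up-regulated genes and 222 down-regulated ones. DESeq2 called 626 and 576, edgeR without a filter 570 and 577, limma on log2(FPKM + 1) 136 and 62, limma on log2(FPKM + 0.1) 21 and 17, and limma on log2(FPKM + 1) of all genes 0 and 0. Leaving out 1 tumor gave 4 (without Sora-treated tumor 4) to 574 (without Sora-treated tumor 3) up-regulated and 1 to 571 down-regulated genes. Of the effector genes, DESeq2 called 1 and edgeR without a filter called 1, Nkg7 in both, and leaving out 1 tumor gave 0 to 2 calls. Lower values were found for 9 of the 10 effector genes under each other tool, scaling, and filter tried, and for 7 to 9 when 1 tumor was left out. The log2 fold change of Gzmc ranged from -0.78 to 0.0073 when 1 tumor was left out, that of Prf1 from -0.42 to 0.086 (0.028 without Sora-treated tumor 2), that of Ifng from -0.36 to 0.066, and that of Fasl from -0.32 to 0.030. The ranges of the genes that kept their direction were -0.85 to -0.37 for Gzma, -0.73 to -0.31 for Gzmb, -0.89 to -0.44 for Gzmk, -0.50 to -0.30 for Nkg7, -0.33 to -0.13 for Klrk1, and 0.28 to 0.76 for Ccl4. The cause was not tested. Relative to T cell or NK cell transcripts, 5 effector genes were lower with the Cd3 genes as reference, 3 with Cd8a and Cd8b1, and 9 with Ncr1 and Klrb1c, and 4 to 7 with the Cd3 genes when 1 tumor was left out. Dividing by a reference shifts every gene in a tumor alike, so these counts also follow how the reference itself moved. The labels share the numbers 3 and 4 between groups and do not say whether they pair the tumors. Deviations of same-numbered tumors had correlations of -0.033 and -0.074, and those of differently numbered tumors ran from -0.157 to 0.259. With 3 tumors per group these values cannot decide whether the tumors are paired. A replicate block takes up control tumor 1 and Sora-treated tumor 2, which have no partner, so that the comparison rests on tumors 3 and 4 of each group. With it, 80 genes were up-regulated and 45 down-regulated in edgeR, with no effector gene among them, 6 effector genes were lower, and the log2 fold changes of Prf1, Ifng, and Fasl were 0.084, 0.045, and 0.15. Under the block those of Ccl4, Gzma, Gzmk, and Gzmb were 0.32, -0.30, -0.22, and -0.21, so that Gzmk was no longer the largest.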
